A study of Mus musculus with 6 samples.

Results

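Basement membrane genes were followed across 6 RNA sequencing libraries of hepatic stellate cells, the vitamin A-storing pericytes that lie between the hepatocytes and the sinusoids of the liver. The set holds 10 genes chosen by symbol among the 24346 symbols of the deposited tables: the collagen IV chains Col4a1, Col4a2 and Col4a5, the laminin chains Lama2, Lama4, Lamb1 and Lamc1, the nidogens Nid1 and Nid2, and Hspg2, which encodes perlecan. All 10 were found, and 9 had a mean of at least 1 FPKM and entered the tests, whereas Col4a5 did not. FPKM are fragment counts divided by transcript length and by the depth of the library, so levels of different genes are compared per length of transcript.

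The study asked what incubation at a high temperature during isolation does to the transcriptome. All mice were wild type C57BL/6 aged 35 weeks. Livers were those of mice on a normal diet, or of mice on a high fat diet, in which a non-tumor and a tumor region were used, and each of these 3 sources was perfused at 37 or at 6 degrees. Cells without CD31 and CD45.2 (surface proteins of endothelial cells and of leukocytes) and with CD49a (integrin alpha 1) on their surface were sorted. Each combination of source and temperature has 1 library, and the labels do not say how many livers it holds or whether libraries came from separate animals. A single library has no error of its own, so each test sets a difference against the residual that additive terms for source and temperature leave, with 2 degrees of freedom, and that residual may be technical.

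Basement membranes are thin sheets of matrix built on a network of laminin and a network of collagen IV. A laminin is a trimer of an alpha, a beta and a gamma chain, and a collagen IV molecule is a trimer of alpha chains that is cross-linked to its neighbours. Nidogens and perlecan, a heparan sulphate proteoglycan, bind both networks. Stellate cells are known as a source of collagen IV and laminin in the space between hepatocytes and sinusoidal endothelium, where a continuous basement membrane is normally missing.

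The libraries held an estimated 1.64e+07 to 2.28e+07 fragments. All 20 listed stellate cell markers were at 1 FPKM or more in every library, and their summed level lay between 25249 and 40504 FPKM. Transcripts of the cell types that the sort should remove were present and moved with temperature. The 20 sinusoidal endothelial markers summed to 929, 1783 and 1462 FPKM at 37 degrees (normal diet, non-tumor, tumor) and to 2956, 5950 and 3280 FPKM at 6 degrees, with none of them at 0 in any library. Ehd3 (446, 688 and 495 FPKM) and Eng (378, 421 and 350 FPKM) held most of the 37 degree sums. At 6 degrees they stood at 607, 700 and 503 FPKM and at 438, 588 and 427 FPKM. In the normal diet library of 37 degrees, 7 of the 20 endothelial markers were under 1 FPKM. The 16 macrophage markers summed to 60.0, 45.0 and 1162 FPKM at 37 degrees and to 638, 827 and 2954 FPKM at 6 degrees, with Marco and Timd4 at 0 in the non-tumor library of 37 degrees and no marker at 0 elsewhere.

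Col4a1 was the most abundant of the set in every library, at 236 to 463 FPKM, and its mean of 335 FPKM stood at the 98.0th percentile of the 11558 genes tested. Its lowest value lay above the highest value of any other member. Lamb1 at 123 to 178 FPKM, Nid1 at 122 to 155 FPKM and Col4a2 at 84.1 to 178 FPKM came next, and their ranges overlapped, so that their order changed between libraries. Lamc1, at 62.1 to 107 FPKM, was below these in each library, although its range overlapped that of Col4a2. Nid2 at 21.0 to 37.8 FPKM, Hspg2 at 9.91 to 17.7 FPKM and Lama2 at 4.16 to 8.76 FPKM followed with ranges that did not overlap each other. Lama4 ran from 0.558 to 14.8 FPKM, a 26.6-fold range, and Col4a5 from 0.280 to 1.02 FPKM. Apart from Lama4 and Col4a5, Nid1 had the narrowest range (1.26-fold) and Col4a2 and Lama2 the widest (both 2.11-fold).

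**Figure D1:**
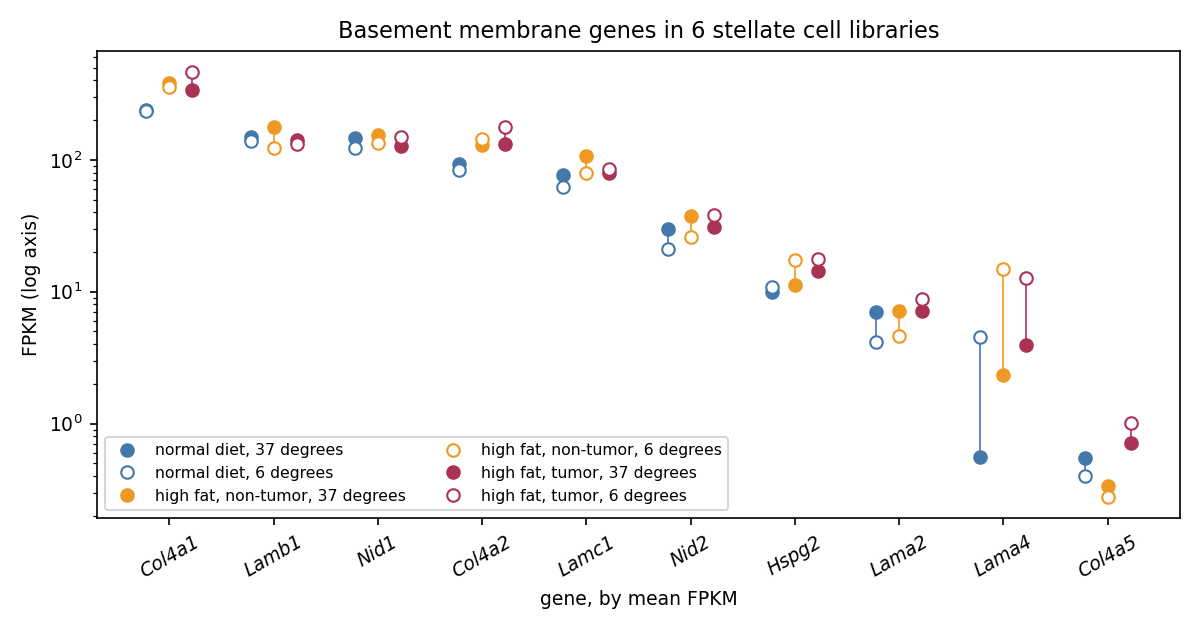
FPKM of the 10 genes in each library on a log axis, ordered by mean; filled points are libraries of 37 degrees, open points those of 6 degrees, and a line joins the libraries of 1 source. Lama4 spans 0.558 to 14.8 FPKM with all open points above the filled point of their source, whereas Nid1 spans 122 to 155 FPKM.

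Col4a1 and Col4a2, whose chains form the collagen IV trimer found in most basement membranes, lie head to head on mouse chromosome 8 (GRCm38). Col4a1 runs from 11198423 to 11312826 on the minus strand and Col4a2 from 11312805 to 11449287 on the plus strand, so that their annotated first exons overlap by 22 bases. The stretch between both starts is shown because these genes had nearly the same profile over the libraries. It is followed by the stretches around the CCAAT motifs of the combined RefSeq window (GRCm38.p6, chr8:11312555-11313076), all written on the plus strand with the motif in capitals (GGGCGG in the first, CCAAT in the others).
Shared start, chr8:11312805-11312826: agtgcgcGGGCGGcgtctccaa
CCAAT before Col4a2, chr8:11312761-11312790: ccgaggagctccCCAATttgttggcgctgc
CCAAT before Col4a1, chr8:11312955-11312984: ccccttggctcgCCAATcccgggcaagcac
The CCAAT of the second stretch begins 32 bases before the start of Col4a2, inside the transcribed part of Col4a1, and that of the last begins 141 bases before the start of Col4a1, inside the transcribed part of Col4a2. The window of 522 bases held 73.9% G and C, against a median of 52.7% over all promoter windows. On either strand, CCAAT was in 37.4% and GGGCGG in 35.7% of the 32851 RefSeq windows (250 bases before to 50 after a start). A window was matched for 7 of the 10 members. CCAAT was in 5 of these (Col4a1, Col4a2, Col4a5, Lamb1, Nid1), GGGCGG in all 7 (also Hspg2 and Lama2), and TATAAA, which 13.6% of all windows hold, in none. A match describes the letters of a window and not a bound site.

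Isolation temperature left most of the set without a change that passed the test, and Lama4 was the exception. Lama4 encodes laminin alpha 4, a chain of the laminins of vessel and muscle basement membranes, and lies on chromosome 10 from 38965515 to 39110188 on the plus strand (GRCm38). It stood at 0.558, 2.33 and 3.92 FPKM in the 37 degree libraries from normal diet, non-tumor and tumor, and at 4.52, 14.8 and 12.6 FPKM in the matching 6 degree libraries. The groups did not overlap, and the lower value was that of 37 degrees in each source. Tests were run with limma on log2(FPKM + 1), which understates the change of genes with low values, and Benjamini-Hochberg adjustment was made over 11558 genes with a threshold of 0.05. Lama4 was lower at 37 degrees by a log2 difference of -1.85 ± 0.17 (standard error, 3 pairs of libraries; adjusted p = 0.0103), with -1.83, -2.25 and -1.47 in normal diet, non-tumor and tumor. The ratio of its FPKM between 37 and 6 degrees was 0.123, 0.157 and 0.310 in that order. Of the 9 members, 1 was thus lower and 0 were higher, where 4.62% of all genes tested were called lower and 0.51% higher, 5.13% in all.

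By temperature, the Lama4 values moved in the same direction as those of endothelial cells in each source. In sorted cells, fewer cells of a type cannot be told apart from less RNA per cell. Between sources the direction was not always shared. From non-tumor to tumor at 37 degrees, Lama4 differed by 0.56 and the endothelial list by a median of -0.19. At 6 degrees these differences were -0.22 and -0.90. Of the 20 endothelial markers, 18 were lower at 37 degrees, with a median log2 difference of -3.07, and the medians within normal diet, non-tumor and tumor were -3.93, -2.92 and -2.14. Pecam1, which encodes the CD31 used to remove endothelial cells, stood at 0.900, 9.99 and 10.7 FPKM at 37 degrees against 31.4, 90.6 and 53.0 FPKM at 6 degrees. Of 15 macrophage markers tested, 11 were lower at 37 degrees (median -2.82). The ratio of Lama4 to Pecam1 was higher at 37 degrees in each source, with 0.620, 0.234 and 0.367 there and 0.144, 0.164 and 0.238 at 6 degrees. Per 1000 FPKM of the summed endothelial list, Lama4 amounted to 0.600, 1.31 and 2.68 FPKM at 37 degrees and to 1.53, 2.49 and 3.85 FPKM at 6 degrees, lower at 37 degrees in each source. Ehd3 and Eng, which held most of that sum at 37 degrees, were the 2 markers not called (-0.16, adjusted p = 0.452, and -0.33, adjusted p = 0.101). At 37 degrees the ratio to the sum thus reflects these 2 more than the 18 markers that were lower. The part of endothelial or macrophage RNA in the Lama4 difference was not tested. The Lama4 call was lost without the non-tumor pair (-1.65, adjusted p = 0.0529), without the filter on low values (-1.85, adjusted p = 0.0589) and without a term for source (-1.85, adjusted p = 0.304). Leaving out either library of the non-tumor pair gave the same estimate of -1.65 as leaving out both, since a library without its partner adds nothing to it. With that estimate the call was kept without the non-tumor library of 37 degrees and lost without that of 6 degrees. About 63.9 fragments lay behind the lowest value and 1716 behind the highest, a counting error of 12.5% and 2.41%.

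**Figure D2:**
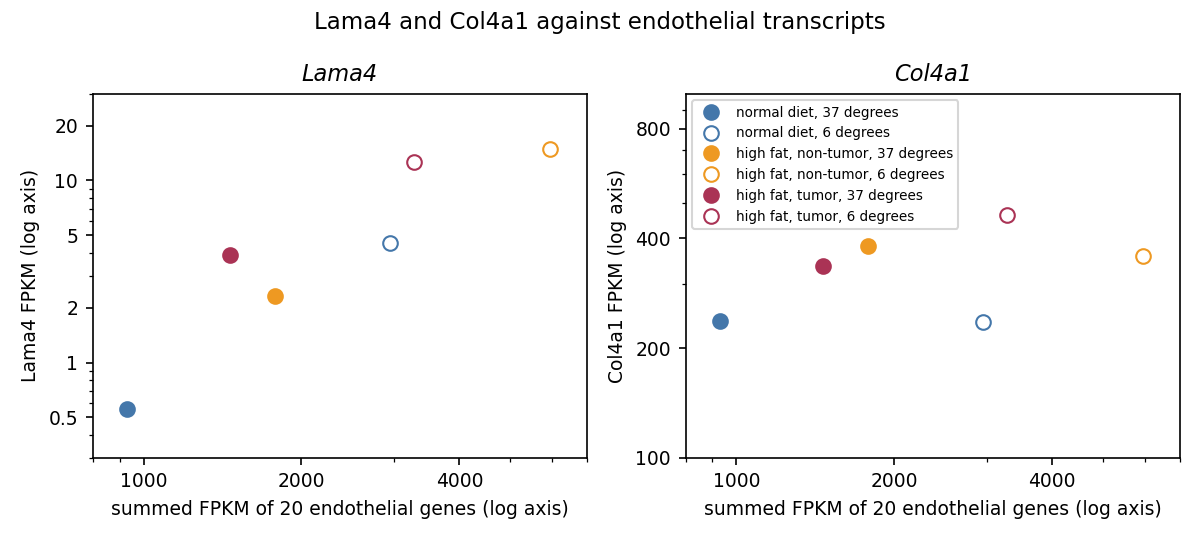
FPKM of Lama4 (left) and Col4a1 (right) against the summed FPKM of 20 sinusoidal endothelial markers, 1 point per library, all axes logarithmic; filled points are 37 degrees and open points 6 degrees. Lama4 is at 0.558 FPKM in the library with the lowest endothelial sum (929) and at 14.8 FPKM in the one with the highest (5950), whereas Col4a1 is at 238 and 357 FPKM in them. At 37 degrees the tumor library has more Lama4 than the non-tumor one (3.92 against 2.33 FPKM) at a lower sum (1462 against 1783). Ehd3 and Eng make up most of the sum in the libraries of 37 degrees.

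The other 8 members tested did not pass for temperature. Col4a1 stood at 238, 382 and 335 FPKM at 37 degrees (normal diet, non-tumor, tumor) and at 236, 357 and 463 FPKM at 6 degrees. The groups overlapped, and the difference was -0.12 ± 0.12 (adjusted p = 0.634; 95% interval -0.43 to 0.19). Col4a2 likewise differed by -0.14 ± 0.12 (adjusted p = 0.560; -0.44 to 0.16). Lama2, the alpha chain of the laminins of muscle and nerve, had 0.31 ± 0.20 (adjusted p = 0.442; -0.20 to 0.82). Lamb1 and Lamc1, the beta 1 and gamma 1 chains shared by many laminins, had 0.24 ± 0.11 (adjusted p = 0.277; -0.02 to 0.51) and 0.21 ± 0.11 (adjusted p = 0.369; -0.08 to 0.50). Among the linkers, Nid1 had 0.07 ± 0.12 (adjusted p = 0.777; -0.22 to 0.36), Nid2 0.25 ± 0.18 (adjusted p = 0.480; -0.20 to 0.70) and Hspg2 -0.33 ± 0.12 (adjusted p = 0.204; -0.63 to -0.03).

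Lamb1 was the only member besides Lama4 whose groups did not overlap, with 149, 178 and 141 FPKM at 37 degrees against 138, 123 and 132 FPKM at 6 degrees. Over all genes tested, 8.3% had all 37 degree libraries above all 6 degree ones and 9.4% had them below, so 1 member in each direction is near the background. The sign of the differences depended on the source. In normal diet 7 of the 9 members were higher at 37 degrees and in the non-tumor region 6, whereas in the tumor region 8 were lower and only Lamb1 was higher. Over all genes 53.3%, 52.1% and 49% were higher at 37 degrees in these sources. The median of the 9 members was 0.15, 0.21 and -0.28 in them, and 0.07 in the joint fit against 0.01 for all genes. With 1 library on each side the difference between sources was not tested.

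**Figure D3:**
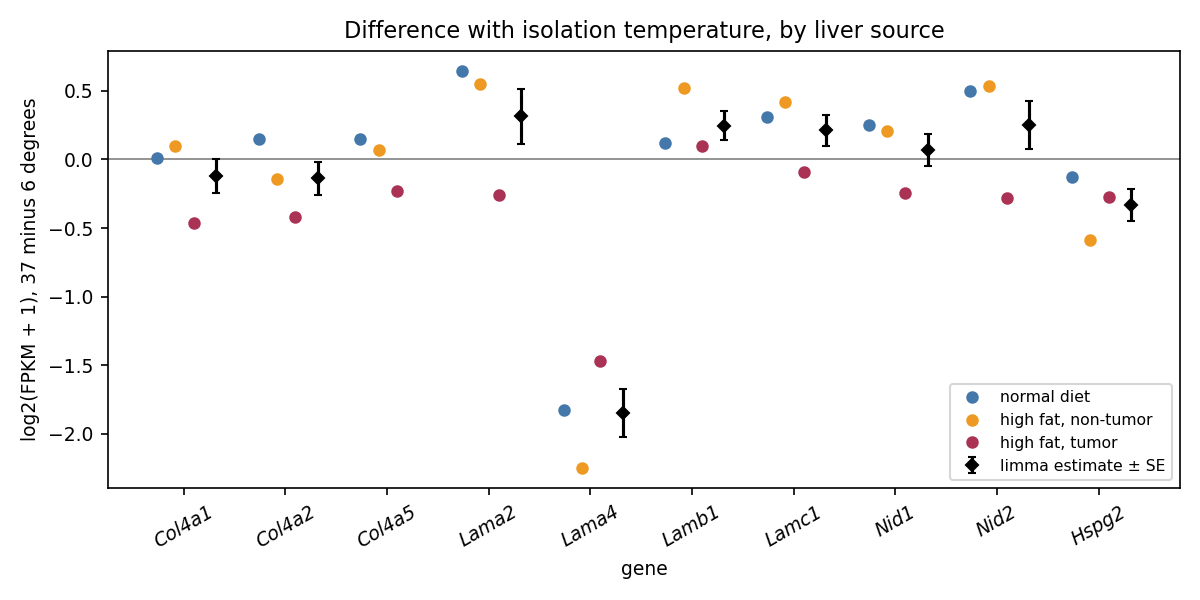
Difference in log2(FPKM + 1) between 37 and 6 degrees for each gene; coloured points are the 3 sources and black diamonds the limma estimate with its standard error (none for Col4a5, which was below the filter). Lama4 lies between -2.25 and -1.47 in all sources, and 8 of the 9 tested genes are below 0 in the tumor region.

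Scaling mattered for the direction of the small temperature differences. When libraries were rescaled so that the stellate cell markers had the same median level, the median of all genes moved from 0.01 to -0.34 and 42.2% of all genes were called. Under this scaling Col4a1 (-0.52, adjusted p = 0.0254), Col4a2 (-0.54, adjusted p = 0.0198) and Hspg2 (-0.70, adjusted p = 0.0151) were also called lower at 37 degrees. Lama2, Lamb1, Lamc1, Nid1 and Nid2 then had differences of -0.03 to -0.33 and did not pass. The stellate markers themselves were higher at 37 degrees as deposited, with a median of 0.38 and 5 of 20 passing, where 0.51% of all genes were called higher.

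The source of the cells went with a higher level of the main collagen IV chains and of Lama4. Col4a1 stood at 238 and 236 FPKM in normal diet (37 and 6 degrees), at 382 and 357 FPKM in the non-tumor region and at 335 and 463 FPKM in the tumor region. Both normal diet libraries were below all 4 libraries of the high fat diet livers. Against normal diet, Col4a1 was higher in the tumor region by 0.73 ± 0.15 (2 pairs; adjusted p = 0.0458), while the non-tumor region gave 0.64 ± 0.15, which did not pass (adjusted p = 0.0820). Both contrasts use the same normal diet libraries and are not independent.

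Col4a2 was also lowest in normal diet, with 93.4 and 84.1 FPKM in normal diet, 130 and 144 FPKM in the non-tumor region and 132 and 178 FPKM in the tumor region. Again no high fat diet library was as low as those of normal diet. Against normal diet, Col4a2 was higher in the tumor region by 0.78 ± 0.15 (adjusted p = 0.0347). The non-tumor region gave 0.62 ± 0.15, which did not pass (adjusted p = 0.0784). The tumor region differs from normal diet in both diet and region. Between tumor and non-tumor region, Col4a2 differed by 0.16 ± 0.15 (adjusted p = 0.731). The fold of FPKM between tumor and normal diet was 1.41 for Col4a1 and 1.42 for Col4a2 at 37 degrees, and 1.96 and 2.11 at 6 degrees. The ratio of Col4a1 to Col4a2 stayed between 2.48 and 2.93 in the 6 libraries.

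Lama4 was higher in the tumor region by 1.48 ± 0.21 (adjusted p = 0.0182), with a 7.02-fold higher FPKM at 37 degrees and 2.79-fold at 6 degrees. In the non-tumor region it was higher by 1.31 ± 0.21 (adjusted p = 0.0319), with 4.18-fold and 3.28-fold. Within each temperature its value in normal diet was the lowest of the 3 sources. Thus 3 of the 9 members were called higher and 0 lower in the tumor region, where 6.07% of all genes were called higher, 3.28% lower and 9.35% in either direction. In the non-tumor region 1 of 9 was called higher and 0 lower, against 2.98% higher, 2.59% lower and 5.56% in either direction. The median of the 9 members was 0.47 in the tumor and 0.40 in the non-tumor contrast, where that of all genes was 0.01 and 0.03. The balance over all genes moved with scaling: 702 were called higher and 379 lower in the tumor region, against 541 and 471 with quantile normalization, and 344 and 299 in the non-tumor region, against 219 and 346 after rescaling to the stellate markers.

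Markers of other cells and of activated stellate cells also differed between sources. The endothelial list had a median difference of 1.20 in the tumor region and of 1.89 in the non-tumor region. Of its 20 genes 2 and 4 were called higher in these regions, against 6.07% and 2.98% of all genes. By temperature, its median tumor difference from normal diet was 2.08 at 37 and 0.31 at 6 degrees. In that order Col4a1 had 0.49 and 0.97, Col4a2 0.50 and 1.07 and Lama4 1.66 and 1.30. The medians of other lists were 1.29 and 1.61 (vascular smooth muscle), 3.16 and 2.12 (macrophage) and 0.40 and 0.22 (activated stellate cells). Of 15 macrophage markers tested, 9 were higher in the tumor region (median 2.63) and 0 in the non-tumor region (median -0.04). Of 7 vascular smooth muscle markers tested, 5 were higher in the tumor region (median 1.44), among them Acta2 at 107 and 112 FPKM in normal diet and 266 and 337 FPKM in the tumor region, and 1 (Tagln) in the non-tumor region. The summed smooth muscle list of 8 genes was 616 and 466 FPKM in normal diet, 934 and 754 FPKM in the non-tumor region and 1354 and 1366 FPKM in the tumor region, with Myocd at 0 in the 37 degree libraries of normal diet and non-tumor. Acta2 is also among the 12 listed genes of activated stellate cells. Of these, 5 were higher in the tumor region (Acta2, Timp1, Postn, Tnc and Fn1) and 1 was lower (Loxl1), with a median of 0.21. In the non-tumor region 4 were higher and 2 lower (median -0.23). Over all genes 3.28% and 2.59% were called lower in the tumor and non-tumor region. The part of any of these cells in the collagen IV and Lama4 differences was not tested.

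The source calls depended on the libraries and settings used. Col4a1 and Col4a2 lost theirs without either normal diet library, either non-tumor library or the tumor library of 6 degrees (Col4a1 0.47 to 0.83, adjusted p = 0.0670 to 0.200; Col4a2 0.57 to 0.999, adjusted p = 0.0519 to 0.129), and Lama4 lost its tumor call without either normal diet library (1.46 to 1.50, adjusted p = 0.0928) or the tumor library of 37 degrees (1.20, adjusted p = 0.0599). In the non-tumor region Lama4 lost its call without any of the 4 libraries compared (1.01 to 1.61, adjusted p = 0.0999 to 0.233), whereas Col4a1 (0.64, adjusted p = 0.0210 to 0.0228) and Col4a2 (0.62, adjusted p = 0.0350 to 0.0373) gained one without either or both tumor libraries. The tumor calls of Col4a1 and Col4a2 were also lost with quantile normalization (0.51, adjusted p = 0.145; 0.62, adjusted p = 0.0934) and without a trend (0.73, adjusted p = 0.0790; 0.78, adjusted p = 0.0623), and that of Col4a1 with a pseudocount of 0.1 (0.73, adjusted p = 0.0555) and with a minimum mean of 5 FPKM (0.73, adjusted p = 0.0548). Without the filter on low values all 3 tumor calls and the non-tumor call of Lama4 were lost (adjusted p = 0.0608 to 0.104), as they were without a term for temperature (adjusted p = 0.125 to 0.671).

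**Figure D4:**
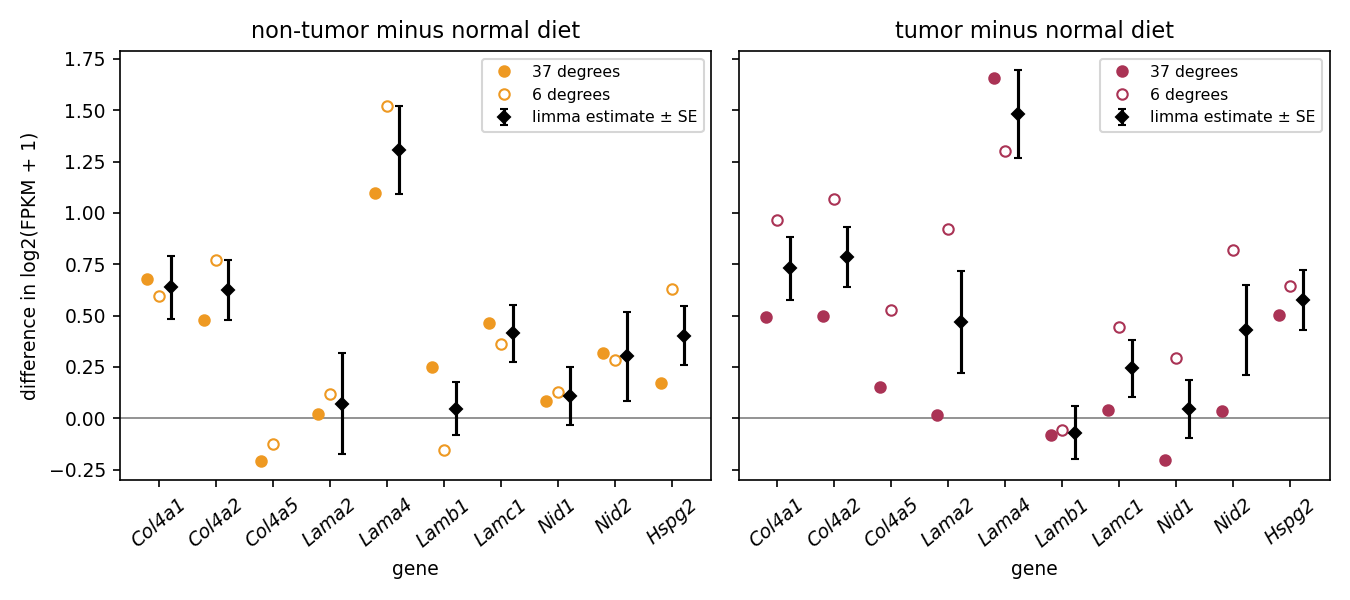
Difference in log2(FPKM + 1) from normal diet for the non-tumor (left) and the tumor region (right); filled and open points are the libraries of 37 and 6 degrees, and black diamonds the limma estimate with its standard error (none for Col4a5). Col4a1 and Col4a2 lie above 0 at both temperatures in both panels, at 0.48 to 1.07, and Lama4 at 1.10 to 1.66.

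The other members tested did not pass in either contrast with normal diet. Perlecan transcripts came closest in the tumor region. Hspg2 stood at 9.91 and 10.9 FPKM in normal diet, 11.3 and 17.5 FPKM in the non-tumor region and 14.5 and 17.7 FPKM in the tumor region. The normal diet values were the lowest, and Hspg2 had 0.57 ± 0.15 in the tumor region (adjusted p = 0.0740) and 0.40 ± 0.15 in the non-tumor region (adjusted p = 0.194).

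Lamc1 stood at 77.2 and 62.1 FPKM in normal diet, 107 and 80.0 FPKM in the non-tumor region and 79.6 and 84.8 FPKM in the tumor region. It had 0.41 ± 0.14 in the non-tumor region (adjusted p = 0.174) and 0.24 ± 0.14 in the tumor region (adjusted p = 0.340). Lamb1 showed no order by source, with 149 and 138 FPKM in normal diet inside the 123 to 178 FPKM of the other libraries. Its differences were -0.07 ± 0.13 in the tumor region (adjusted p = 0.778; 95% interval -0.40 to 0.26) and 0.05 ± 0.13 in the non-tumor region (adjusted p = 0.893; -0.28 to 0.37).

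Lama2 stood at 7.07 and 4.16 FPKM in normal diet, 7.20 and 4.60 FPKM in the non-tumor region and 7.16 and 8.76 FPKM in the tumor region. The tumor library of 6 degrees was the highest, and at 37 degrees the non-tumor and tumor libraries differed from normal diet by 0.022 and 0.015 on the log2(FPKM + 1) scale. The tumor region gave 0.47 ± 0.25 (adjusted p = 0.304) and the non-tumor region 0.07 ± 0.25 (adjusted p = 0.921).

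Nid2, the less abundant nidogen, had a similar pattern, with 30.1 and 21.0 FPKM in normal diet, 37.7 and 25.8 FPKM in the non-tumor region and 30.9 and 37.8 FPKM in the tumor region. It had 0.43 ± 0.22 in the tumor region (adjusted p = 0.287) and passed there without the tumor library of 37 degrees (0.83, adjusted p = 0.0408). The non-tumor region gave 0.30 ± 0.22 (adjusted p = 0.507). Nid1 stood at 146 and 122 FPKM in normal diet, 155 and 134 FPKM in the non-tumor region and 126 and 150 FPKM in the tumor region, so that all sources overlapped. Its differences were 0.04 ± 0.14 (tumor, adjusted p = 0.878; -0.31 to 0.40) and 0.11 ± 0.14 (non-tumor, adjusted p = 0.737; -0.25 to 0.46). Without overlap, 6 of the 9 members were higher in the tumor region than in normal diet (Col4a1, Col4a2, Lama2, Lamc1, Nid2 and Hspg2) and 4 in the non-tumor region (Col4a1, Col4a2, Lamc1 and Hspg2), where 25.1% and 24.1% of all genes did so. None of the 9 was lower without overlap, which 24.7% and 21.3% of all genes were.

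Col4a5, whose chain joins the collagen IV networks of kidney and other specialised basement membranes, was the lowest of the set in every library. It stood at 0.547 and 0.397 FPKM in normal diet, 0.339 and 0.280 FPKM in the non-tumor region and 0.718 and 1.02 FPKM in the tumor region, from about 35.0 to 128 fragments. The tumor libraries were the highest and the non-tumor ones the lowest, with no overlap between the 3 sources. Over the genes tested, 25.1% were higher without overlap in the tumor region than in normal diet. Those lower in the non-tumor region than in normal diet were 21.3%, and those higher in the tumor than in the non-tumor region 14.7%. The share with all 3 was not counted. Fitted without the filter on low values, over 18432 genes, Col4a5 had 0.34 ± 0.12 for tumor against normal diet (adjusted p = 0.233), -0.17 ± 0.12 for non-tumor against normal diet (adjusted p = 0.607), 0.51 ± 0.12 for tumor against non-tumor (adjusted p = 0.370) and -0.01 ± 0.10 for temperature (adjusted p = 0.981).

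Between the tumor and the non-tumor region of the high fat diet livers, limma called 0 of the 9 members, and 0 had an unadjusted p under 0.05. In the fit without a trend, which is not the main fit used for the members, 1126 of all 11558 genes had an unadjusted p under 0.05. Of all genes 0.45% were called, all of them higher in the tumor region. Col4a1 differed by 0.09 ± 0.15 (adjusted p = 0.859; 95% interval -0.29 to 0.48), Col4a2 by 0.16 ± 0.15 (adjusted p = 0.731; -0.21 to 0.53) and Lama4 by 0.17 ± 0.21 (adjusted p = 0.808; -0.36 to 0.71). None of the 9 members tested had groups that were apart, where 14.7% of all genes were higher and 17.8% lower without overlap. At 37 degrees 3 of 9 were higher in the tumor region and at 6 degrees 8 of 9, where 47.7% and 46.4% of all genes were.

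The alpha chains of laminin were not present in equal amounts. Lama1, which is not among the 10 genes but encodes the laminin alpha 1 chain of early embryonic and some epithelial basement membranes, was the most abundant of the 5, at 37.3 and 31.0 FPKM in normal diet, 66.4 and 49.2 FPKM in the non-tumor region and 46.9 and 48.8 FPKM in the tumor region. It made up 68.3% to 86.6% of the summed alpha chain FPKM. The share of Lama2 lay between 6.58% and 15.2% and that of Lama5 between 0.96% and 4.77%. Lama4 held 1.20%, 3.04% and 6.68% at 37 degrees (normal diet, non-tumor, tumor) and 10.8%, 21.2% and 17.7% at 6 degrees. Consequently Lama2 was above Lama4 in every 37 degree library and below it in every 6 degree library, with a ratio of Lama4 to Lama2 from 0.0789 to 3.22. These levels are descriptions of single libraries. Like the Lama4 share, the endothelial sums given above were higher at 6 than at 37 degrees in each source. At 37 degrees the tumor library had a larger Lama4 share than the non-tumor one, at a lower endothelial sum (1462 against 1783 FPKM).

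The summed alpha chains amounted to 0.603 to 0.874 times the FPKM of Lamc1. Lamb1 was 1.54 to 2.22 times Lamc1 and 5.64 to 10.1 times Lamb2, the beta chain of synaptic and kidney laminins. Nid1 was 3.97 to 5.83 times Nid2. The lowest value of the last ratio and the highest of Lamb1 to Lamc1 came from the tumor and the normal diet library of 6 degrees, respectively.

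**Figure D5:**
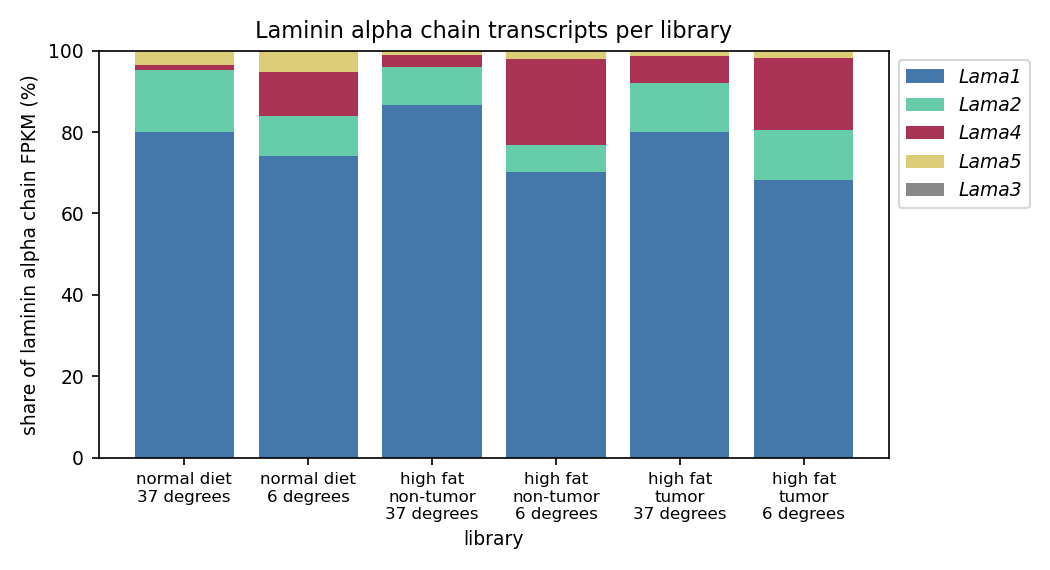
Share of each laminin alpha chain in the summed FPKM of Lama1 to Lama5, 1 bar per library, in percent. Lama1 holds 68.3% to 86.6%, and the Lama4 part is larger at 6 than at 37 degrees in each source, up to 21.2% in the non-tumor region; Lama3 is at most 0.42%.

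Among other components of basement membranes, Ntn4 and Fbln2 passed for temperature. Of 27 listed genes 14 were tested; the collagen IV chains Col4a3, Col4a4 and Col4a6 and the laminin chains Lama3, Lamb3 and Lamc3 were below the filter, with means of 0.0266 to 0.190 FPKM. For temperature 2 of the 14 were lower at 37 degrees and 0 higher, where 4.62% of all genes were called lower and 0.51% higher: Ntn4, a netrin that binds laminin (-1.81 ± 0.14, adjusted p = 0.00857), and Fbln2, a fibulin (-1.02 ± 0.18, adjusted p = 0.0403). Ntn4 stood at 8.25, 19.0 and 16.4 FPKM at 37 degrees against 26.1, 89.9 and 55.6 FPKM at 6 degrees, in the same direction as the endothelial markers, whose part was not tested.

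In the tumor region 4 of the 14 were higher and 0 lower than in normal diet (6.07% and 3.28% of all genes): Col18a1, the source of endostatin (2.03 ± 0.31, adjusted p = 0.0211), Sparc, a collagen-binding matricellular protein (0.77 ± 0.10, adjusted p = 0.0151), Ntn4 (0.99, adjusted p = 0.0275) and Fbln5 (1.07, adjusted p = 0.00940). In the non-tumor region also 4 were higher and 0 lower (2.98% and 2.59% of all genes): Lama1 (0.73 ± 0.14, adjusted p = 0.0452), Tinagl1 (0.80 ± 0.11, adjusted p = 0.0219), Ntn4 (1.43, adjusted p = 0.0141) and Fbln5 (0.87, adjusted p = 0.0167). Col18a1 stood at 3.51 and 3.15 FPKM in normal diet, 10.5 and 7.04 FPKM in the non-tumor region and 12.4 and 22.3 FPKM in the tumor region. All 4 high fat diet libraries were above those of normal diet. The medians of the list were 0.39 (tumor) and 0.42 (non-tumor), against 0.01 and 0.03 over all genes.

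Of the genes for assembly, secretion and cross-linking of collagen IV, 20 of 21 were tested and 0 passed for temperature, where 6 had an unadjusted p under 0.05. In the fit without a trend, which is not the main fit used for this list, 2300 of all 11558 genes had an unadjusted p under 0.05 for temperature. P3h2, a prolyl 3-hydroxylase that acts on collagen IV, had the smallest adjusted p of the list in both contrasts with normal diet, at 22.8 and 15.3 FPKM in normal diet, 66.7 and 49.2 FPKM in the non-tumor region and 58.1 and 49.2 FPKM in the tumor region. It was higher by 1.57 ± 0.11 in the non-tumor region (adjusted p = 0.00653) and by 1.47 ± 0.11 in the tumor region (adjusted p = 0.00717). P4ha1, a subunit of prolyl 4-hydroxylase, and Plod3, a lysyl hydroxylase, were also higher in the tumor region (0.75, adjusted p = 0.0165; 0.67, adjusted p = 0.0165) and in the non-tumor region (0.83, adjusted p = 0.0151; 0.71, adjusted p = 0.0172). Tmem38b, an ion channel of the endoplasmic reticulum, passed in the tumor region (0.90, adjusted p = 0.0238) and not in the non-tumor region (0.66, adjusted p = 0.0677). Hence 4 of 20 rose in the tumor and 3 of 20 in the non-tumor region, and 0 fell, where 6.07% and 2.98% of all genes were called higher and 3.28% and 2.59% lower. Pxdn, the peroxidase that forms the sulfilimine cross-links of collagen IV, and the collagen chaperone Serpinh1 did not pass in any of the 4 contrasts.

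Of the receptors, 20 of 23 were tested. For temperature 1 was higher and 2 were lower, where 0.51% of all genes were called higher and 4.62% lower. Sdc4, a syndecan, was higher at 37 degrees (0.64 ± 0.09, adjusted p = 0.0253), whereas Itga6, the alpha 6 chain of laminin-binding integrins (-1.11 ± 0.16, adjusted p = 0.0218), and Plxdc1 (-1.68 ± 0.16, adjusted p = 0.0103) were lower. Itga6 stood at 0.120, 0.457 and 0.845 FPKM at 37 degrees against 1.20, 2.77 and 2.69 FPKM at 6 degrees, again in the direction of the endothelial markers. In the tumor region 2 of 20 were higher (Itga1 0.97 ± 0.11, adjusted p = 0.0103; Sdc4 1.10 ± 0.12, adjusted p = 0.00978) and 1 was lower (Gpc4 -0.64 ± 0.12, adjusted p = 0.0379), where 6.07% of all genes were called higher and 3.28% lower. In the non-tumor region 4 were higher (Itga1 1.01, adjusted p = 0.0109; Itga9 0.86, adjusted p = 0.0289; Itgb3 0.96, adjusted p = 0.0101; Sdc4 0.86, adjusted p = 0.0187) and 0 lower, against 2.98% and 2.59% of all genes. Itga1, a collagen IV receptor, encodes the CD49a on which the cells were sorted, and stood at 87.6 to 90.5 FPKM in normal diet and at 161 to 204 FPKM in the high fat diet libraries. The most abundant receptor chain of the list was Itgb1, at 435 to 660 FPKM, and it did not pass in any contrast.

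Among 18 tested proteases and inhibitors, the inhibitors Timp1 and Timp3 were higher in both regions of the high fat diet livers. Timp3, an inhibitor of metalloproteinases, stood at 110 and 109 FPKM in normal diet, 396 and 313 FPKM in the non-tumor region and 555 and 370 FPKM in the tumor region. It was higher by 1.67 ± 0.15 (non-tumor, adjusted p = 0.00794) and 2.04 ± 0.15 (tumor, adjusted p = 0.00693). Timp1 was higher as well (0.55, adjusted p = 0.0228; 0.998, adjusted p = 0.00717), while Timp2 did not pass. Mmp2, a gelatinase that cleaves collagen IV, stood at 114 and 99.6 FPKM in normal diet and at 32.3 to 46.9 FPKM in the high fat diet libraries, and was lower by -1.50 ± 0.10 (non-tumor, adjusted p = 0.00624) and -1.38 ± 0.10 (tumor, adjusted p = 0.00693). In the tumor region 6 of 18 were higher (also Plat, Ctsb, Ctsl and Ctss) and 1 lower, and in the non-tumor region 4 were higher (also Ctsl and Hpse) and 2 lower (also Mmp3, -1.69, adjusted p = 0.0245). Over all genes 6.07% were called higher and 3.28% lower in the tumor region, and 2.98% and 2.59% in the non-tumor region.

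For temperature, Timp1 (0.42, adjusted p = 0.0289) and Plat (0.64, adjusted p = 0.0272) were higher and Ctsb (-0.71, adjusted p = 0.0235) and Ctss (-2.87, adjusted p = 0.0216) lower at 37 degrees. Of the 18 genes 2 were thus higher and 2 lower, against 0.51% and 4.62% of all genes. Ctss, a cathepsin of macrophages and other antigen-presenting cells, ran from 3.58 to 280 FPKM and was lower at 37 than at 6 degrees in each source, as were the macrophage sums. Between tumor and non-tumor region 0 genes of these 4 lists passed, where 4, 4, 4 and 5 had an unadjusted p under 0.05. Over all genes this held for 1126 of 11558 in the fit without a trend, which is not the main fit used for the lists. The lists were not tested against that share.

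The genes with the most similar profiles were ranked by the root mean square difference of centred log2(FPKM + 1) over the 6 libraries. For Col4a1 these were Syngr3 (0.07), Col4a2 (0.09) and Prkx (0.10), and for Col4a2 they were Nxn (0.08), Col4a1 (0.09) and Acss1 (0.09), so that each of the pair stood second in the other's ranking. The genes nearest to Lama4 were Cd93 (0.10), Efnb2 (0.14) and Plekho1 (0.14), where Cd93 is a surface protein of endothelial and myeloid cells, at 0.174, 1.36 and 2.45 FPKM at 37 degrees and 3.63, 12.2 and 9.07 FPKM at 6 degrees. Among those of Lama2 were Eno2 (0.12) and Nid2 (0.13). Nid2 had Flna (0.08), Susd2 (0.09) and Zeb2os (0.10), and Hspg2 had Tlr2 (0.07), Atp2b4 (0.07) and Plekho2 (0.07). Lamb1 (Cep135, Wdfy1, Mga), Lamc1 (Gm14305, Mocos, Mrvi1) and Nid1 (Smg9, Atxn1, Siae) had their nearest genes at 0.01 to 0.05. Those of Col4a5 (6330418K02Rik, Gyk, Bud31) were at 0.05 to 0.07, on a scale whose pseudocount of 1 compresses values as low as these. With 6 libraries such rankings describe these libraries only.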

How the data were processed

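RNA of 6 sorted stellate cell libraries was sequenced with standard Illumina libraries, per the labels' protocols. The deposited values are FPKM per gene symbol, made by the authors with TopHat2 2.1.1, Bowtie2 and Cuffdiff 2.2.1 on mm10, per the submitters' processing notes. Annotation, strand setting and scaling within Cuffdiff were not given in the sources used here. Values summed to different totals per library, and no counts were used. Without stated strand, reads of Col4a1 and Col4a2, of Nid2 and Rtraf, and of Col4a2, Lama2 and Nid1 and their antisense genes cannot be told apart where exons overlap.

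The log2(FPKM + 1) values were tested with limma 3.58.1 in R 4.3.3 (empirical Bayes with a trend, additive source and temperature, 2 residual degrees of freedom, 5.37 with the prior). A mean of 1 FPKM or more was required, and 1285 small RNA symbols were left out. The script was tested on simulated data. Depth was estimated from the steps of low FPKM values, of which 80.4% to 86.6% per library were whole multiples within 10%. Counting errors cover counting only.

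The 10 genes, the 4 related lists, the 9 marker lists and the tests were chosen with earlier results of these data known. Genes of related lists were named where they passed in a contrast or were among the 4 most abundant. Other genes named to describe a list were chosen after their values were seen. Alternatives were the pseudocount, filter, scaling, trend, model terms and left-out libraries. Some genes of the lists and rankings are not reported here.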

Additional observations from a re-analysis of the deposited data

Results flagged for a closer look

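For 2 genes the temperature difference had opposite signs in different sources, by at least 0.25 on the log2(FPKM + 1) scale on both sides. Lama2 was higher at 37 than at 6 degrees in normal diet (0.65) and in the non-tumor region (0.55), and lower in the tumor region (-0.26). Nid2 was higher at 37 degrees in normal diet (0.50) and in the non-tumor region (0.53), and lower in the tumor region (-0.28). Accordingly, Nid2 was lower in the tumor than in the non-tumor region at 37 degrees (-0.28) and higher at 6 degrees (0.53). With 1 library on each side these differences between groups were not tested.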

How the results depend on the processing

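The number of the 9 members called for temperature (1) was 0 without the filter on low values, 0 without a source term and 4 after rescaling to the stellate markers; leaving out libraries or pairs gave 0 to 1. For tumor against normal diet (3) it was 0 without the filter, 0 without a temperature term, 1 with quantile normalization, 1 without a trend, 2 with a pseudocount of 0.1, 2 with a minimum mean of 5 FPKM, and 0 to 3 when libraries or pairs were left out. For non-tumor against normal diet (1) it was 0 without the filter, 0 without a temperature term, and 0 to 3 in leave-outs. Tumor against non-tumor stayed at 0 in all alternatives run. Over all genes the count for temperature was 593, against 0 without the filter, 0 without a source term, 4879 after stellate rescaling and 63 to 475 in leave-outs. For tumor against normal diet it was 1081, against 504, 4 without a temperature term, and 303 to 980. For non-tumor against normal diet it was 643, against 265, 4, and 0 to 920. For tumor against non-tumor it was 52, against 0 to 123 under other settings and 0 to 165 in leave-outs.

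Of 558 single values recomputed, 467 kept their direction and side of the threshold, 37 lost and 10 gained a call, and 44 changed sign, none of which passed in either fit; the cause was not tested. These values are not all separate, since leaving out either or both libraries of a source gave the same temperature estimate. With quantile normalization Nid1 had -0.0026 for temperature and -0.11 for tumor against normal diet, Lamb1 -0.036 for non-tumor against normal diet and Col4a1 -0.010 for tumor against non-tumor. With stellate rescaling, temperature gave Lama2 -0.031, Lamb1 -0.15, Lamc1 -0.18, Nid1 -0.33 and Nid2 -0.14; non-tumor against normal diet gave Lama2 -0.018 and Lamb1 -0.060; tumor against non-tumor gave Lamb1 0.013 and Nid1 0.067. That scaling moved the median of all genes for tumor against non-tumor from -0.02 to 0.10. Leave-outs that changed a sign spanned, for temperature, Col4a1 -0.23 to 0.053, Col4a2 -0.28 to 0.0025 and Nid1 -0.020 to 0.23. For tumor against normal diet they spanned Lamb1 -0.18 to 0.042 and Nid1 -0.19 to 0.28, and for non-tumor against normal diet Lama2 -0.18 to 0.32, Lamb1 -0.16 to 0.26 and Nid1 -0.027 to 0.24. For tumor against non-tumor they spanned Col4a1 -0.17 to 0.35, Col4a2 -0.052 to 0.37, Lama2 -0.032 to 0.83, Lama4 -0.13 to 0.47, Lamb1 -0.33 to 0.092, Lamc1 -0.40 to 0.057, Nid1 -0.30 to 0.17, Nid2 -0.27 to 0.53 and Hspg2 -0.020 to 0.36. No fit with a replicate block could be made, as each group is a single library; the source term already compares libraries of the same source, and without it the Lama4 temperature call was lost (adjusted p = 0.304). Depth limits Col4a5 most.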
